A study of Chlorella sp. HS2 with 12 samples.

Results

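The genes described here are those named as histones and chromatin modifiers in RNA from cultures of the single-celled green alga Chlorella sp. HS2. They are 96 genes of the 57640 in the deposited count matrix. Of these, 16 are short fragments with a vertebrate best hit at 90% similarity or more, described below, and whether they belong to the alga was not tested. A gene was a member if its best database hit had an E-value of at most 1e-10 and a product name holding any of 9 words or phrases for histones, chromatin, MICRORCHIDIA, SWI/SNF, chromodomain, bromodomain, nucleosome, DNA (cytosine-5)-methyltransferase or lysine-specific demethylase proteins. It also needed 15 or more estimated counts summed over the 6 freshwater libraries, and the same over the 6 marine libraries. Members were thus chosen by product name and by count sums of these same libraries; the name rule matched 157 genes, and the count rule left out 61 of them. Of those 61, 48 had under 15 counts in marine libraries only, 4 in freshwater libraries only and 9 in both, and 39 had a vertebrate best hit. Just inside the limit lay a bromodomain protein 2 fragment (TRINITY_DN9349_c1_g1) with 31.1 freshwater and 15.8 marine counts, a histone H2A.1 (TRINITY_DN6854_c0_g2) with 17.5 and 142, and a histone H1.5 fragment (TRINITY_DN32527_c1_g1) with 64.9 and 23.1. Just outside lay a macro-H2A.1 (TRINITY_DN56883_c0_g1) with 18.1 and 13.4, a histone H3.1 (TRINITY_DN9698_c0_g1) with 34.2 and 12.5, and SAP18, a subunit of a deacetylase complex (TRINITY_DN38421_c0_g1), with 67.2 and 11.6.

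Cultures of the alga grew in light without organic carbon, in CO2-supplied photobioreactors, and all groups shared that regime. The freshwater groups had inorganic medium with no sea salt named in the labels, and the marine groups had 3% (w/v) sea salt. Each medium was sampled on day 4, in exponential phase, and on day 6, in stationary phase. The 4 groups hold 3 libraries each, of poly(A)-selected RNA. Phase and culture age changed together and cannot be told apart.

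DNA in the nucleus is wound around octamers of the core histones H2A, H2B, H3 and H4, and linker histone H1 binds where the DNA enters and leaves. Acetyltransferases and deacetylases set and remove acetyl groups on histone tails, methyltransferases and demethylases do the same for methyl groups, and remodelers use ATP to slide or replace nucleosomes. DNA methyltransferases mark cytosines, and in plants these marks act with histone marks to silence transposons and genes. Core histone transcripts of the replication-dependent kind are known to accumulate when cells copy their DNA, while replacement variants are made throughout the cell cycle.

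Estimated counts per library summed to between 9378066 and 11280635. Levels are CPM, counts brought to a common library size with TMM factors. The edgeR package estimates these so that most genes keep their level, and they ran from 0.738 to 0.870 in freshwater and from 1.11 to 1.40 in marine libraries. Log2 fold changes, given ± SE, come from 1 fit over all 12 libraries, with p-values adjusted over 31491 tested genes and a call made at a false discovery rate under 0.05. This SE was derived from the test, as the absolute log2 fold change divided by the square root of edgeR's F statistic. Marine stationary replicate 3 stood apart from its group, with a median absolute log2 difference over genes of 0.566 and 0.570 to replicates 2 and 1, against 0.179 between those. The 3 marine exponential libraries carry codes with a shared stem, as do marine stationary replicates 1 and 2; whether each was a separate culture is not stated beyond the name of replicate, and p-values measure the spread between these samples. Green alga marker genes, all photosynthesis and pigment genes (47 of 49 listed were detected), summed to between 131004 and 149905 CPM in freshwater exponential libraries and to between 4533 and 7799 CPM in the other 9 libraries. Bacterial markers (101 of 104) summed to 2652 to 3034 CPM in freshwater exponential, 1811 to 1874 in freshwater stationary and 757 to 850 in marine libraries, animal markers (3 of 5) to at most 6.01 CPM, and the 2 fungal markers to between 102 and 537 CPM. The part of these shifts in the results below was not tested. In bulk RNA, fewer cells of a kind, less RNA per cell and altered expression of the marker genes themselves cannot be told apart.

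Members' best hits came from land plants for 52 genes, vertebrates for 29, other animals for 7, slime moulds and fungi for 3 each and green algae for 2. By product name they comprised 22 chromatin remodelers, 14 histone demethylases, 11 histone methyltransferases, 10 core histones, 9 histone deacetylases, 6 bromodomain proteins, 5 linker histones, 5 DNA methyltransferases, 5 histone chaperones, 4 histone acetyltransferases, 4 other proteins and 1 MORC protein. A set of 16 members had a vertebrate best hit at 90% similarity or more, 11 of them at 100%. These fragments were short, from 215 to 675 bases with a median of 323, against a median of 3436 bases (506 to 19162) for the other 80 members. Each was found in 2 to 6 libraries, whereas 73 of the other 80 members had counts in all 12 libraries. Their summed level was 653 CPM in freshwater exponential replicate 3 and between 0 and 112 CPM in the other 11 libraries. Animal marker genes stayed at or below 6.01 CPM in every library, and the part of RNA from other organisms in these fragments was not tested. All 6 members that did not pass the filter on low counts were such fragments, and the 10 fragments that passed were among the 39 tested members called in no comparison. A second feature was that 13 members were composite assembly genes, whose predicted proteins include a domain of another protein family on a separate protein. Their counts sum over both, and they are named as composite below. Only 44 members had a predicted Pfam domain, and the others could not be checked for this, so further composite genes may be among them.

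**Figure D1:**
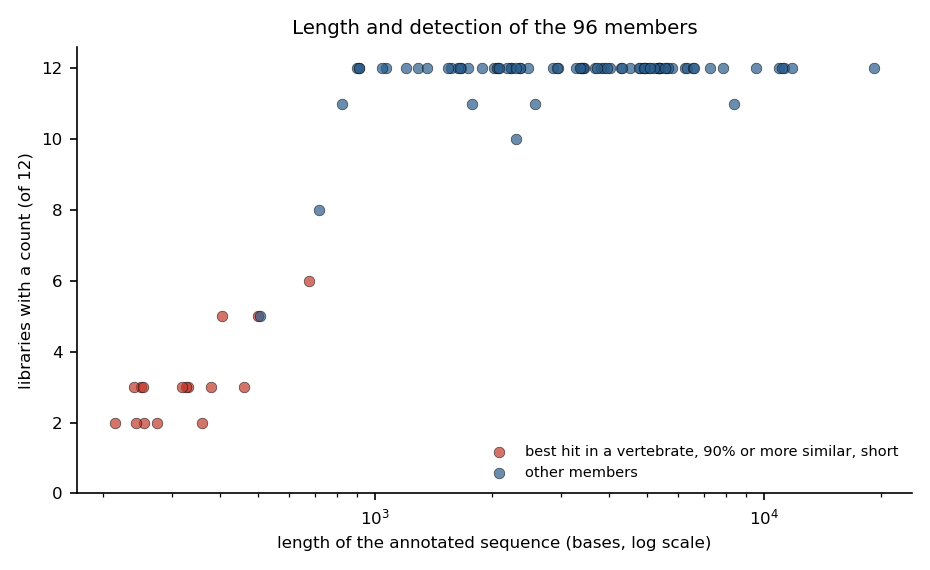
Length in bases of each member (horizontal axis, log scale) against the number of libraries with a count (vertical axis, of 12), for the 80 other members and the 16 members with a vertebrate best hit at 90% similarity or more. The fragments lie at 675 bases or less and in at most 6 libraries, while 73 of the other members were found in all 12.

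Of 90 tested members, 51 were called in at least 1 of the 4 pairwise comparisons, beside 34.6% of all tested genes and 31.8% of those with 15 or more counts in both media. In exponential phase 28 members were higher and 12 lower in marine medium, against 9.3% higher and 10.8% lower among all tested genes, and 11.8% and 9.34% among the 21428 tested genes with 15 or more counts in both media. In stationary phase 18 members were higher and 15 lower in marine medium (9.02% and 17.3% of all tested genes, 8.94% and 11.5% of those in both media). Membership required detection in both media, so nothing is read from these shares. The members' median log2 fold change was 0.18 in exponential and 0.06 in stationary phase, with 0.00 and 0.23 over all tested genes. With library totals in place of TMM factors, which raises the median of all genes by 0.60 in exponential and 0.53 in stationary phase, the counts became 43 higher and 3 lower in exponential phase and 31 higher and 8 lower in stationary phase. Without 1 library at a time the exponential counts ran from 9 higher (without marine exponential replicate 1) to 29, and from 10 to 15 lower, while the median of all genes shifted by -0.23 to 0.00. Each omission repeated the low-count filter, the scaling and the fit, with 37962 to 41585 genes tested in place of 31491. A call lost in an omission, here and below, can thus reflect these repeated steps as well as the library left out. Their parts were not tested. Without marine stationary replicate 3, the library that stood apart, 29 were higher and 15 lower in exponential phase and 19 higher and 16 lower in stationary phase.

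The 2 salt comparisons share no library. A group of 15 members was higher in marine medium in both phases and 6 were lower in both. A further 11 were higher and 6 lower in exponential phase alone, 3 higher and 7 lower in stationary phase alone, and 2 changed direction, which left 40 with no call in either. The difference between the salt effects was itself called for 18 members, 6 with a greater and 12 with a smaller value in stationary phase (2.38% and 4.79% of all tested genes, 3.46% and 7% of those in both media). The 6 include MICRORCHIDIA 2, which met the freshwater count limit through exponential libraries alone, so that call is not relied on. By class, 4 core histones and 5 demethylases were higher in both phases, and 7 remodelers were higher in exponential phase with no call in stationary phase. No share over all tested genes is given for these joint counts, so nothing is read from them.

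**Figure D2:**
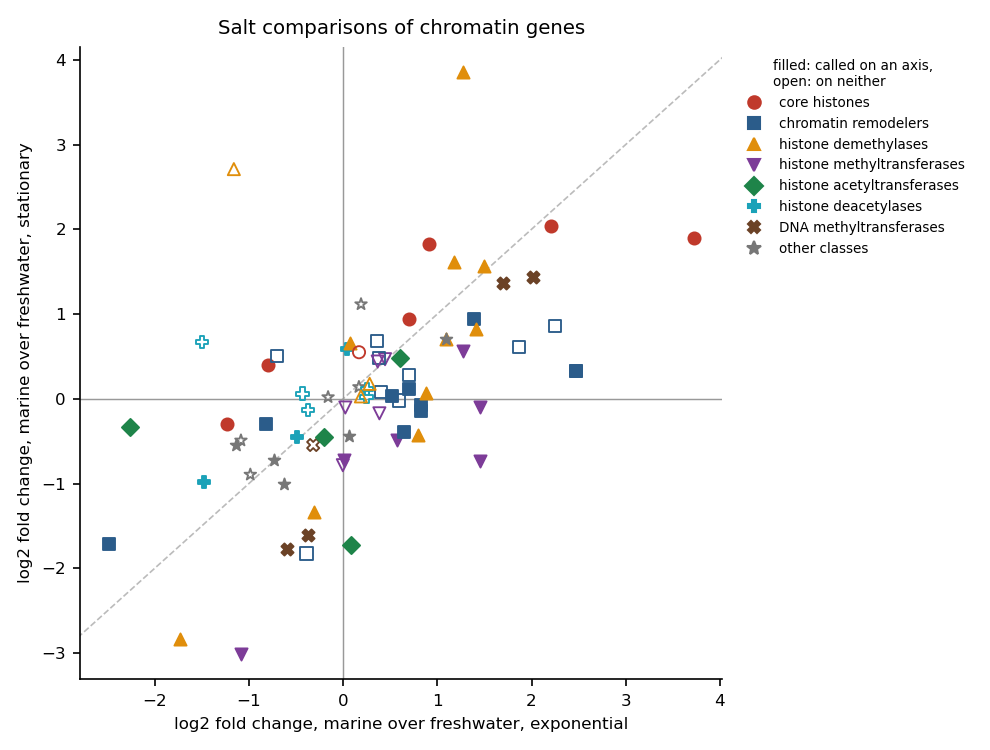
Log2 fold change of marine over freshwater medium in exponential phase (horizontal axis) against stationary phase (vertical axis) for 77 members, leaving out vertebrate-like fragments and tested members with at most 3 counts in a group. Filled points were called in at least 1 phase and the dashed line marks equal effects; the demethylase 4B lies far above the line (1.27 and 3.85) and ATX4 far below it (1.45 and -0.74).

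Core histones moved in opposite directions. Histone H3.2, H4 and H2A.1 rose in marine medium in both phases, while an H2A variant and H2B.3 fell in exponential phase. In freshwater, H2A.1, the H2A variant and H2B.3 fell from exponential to stationary phase and H4 rose. The 8 core histone genes that were not vertebrate-like fragments, the composite H2B.11 among them, summed to 1099 ± 130 CPM (SD, n = 3) in the exponential and 692 ± 84.7 in the stationary freshwater libraries. In marine medium they summed to 1220.1 ± 36.8 in exponential and 1272 ± 83.8 in stationary phase. With the 2 fragments included, the sums were 1200.5 ± 206, 734 ± 115, 1235 ± 51.4 and 1274 ± 81.5 CPM in the same order. The freshwater stationary libraries held the lowest sums, which are values only, with no test over the list. Poly(A) selection leaves out histone transcripts that end in a stem-loop in place of a tail, as most replication-dependent histone transcripts of animals do, and how far it did so here was not tested.

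Histone H3.2 (TRINITY_DN1789_c0_g1, 1660 bases), the nucleosome's H3 subunit, had the highest mean level of the core histones, at 237, 239.7 and 265 CPM in the exponential and 198, 223 and 238 in the stationary freshwater libraries. The marine libraries held 403, 409 and 394 CPM in exponential and 422, 449 and 391 in stationary phase. All 6 marine libraries lay above all 6 freshwater libraries. The salt effect was 0.70 ± 0.10, adjusted p = 0.000616, in exponential phase, and 0.94 ± 0.10, adjusted p = 0.000108, in stationary phase. In exponential phase the call was lost without any 1 freshwater exponential or marine exponential library (log2 changes of 0.38 to 0.70 over all 12 omissions, highest adjusted p 0.109). In stationary phase it held in all 12 omissions, and with library totals the effects were 1.34 and 1.53.

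Histone H4 (TRINITY_DN3934_c0_g2, 2956 bases) stood at 17.8, 12.6 and 12.8 CPM in the exponential and 24.5, 33.4 and 30.2 in the stationary freshwater libraries. In marine medium it had 67.9, 60.1 and 72.04 CPM in exponential and 136, 121 and 105 in stationary phase. Its predicted protein carries the Pfam domains CENP-T_C and TAF, which share the histone fold. The 4 groups did not overlap and rose in the order freshwater exponential, freshwater stationary, marine exponential, marine stationary. The salt effects were 2.21 ± 0.18, adjusted p = 1.73e-05, and 2.04 ± 0.18, adjusted p = 3.59e-05, in the 2 phases. H4 was also the only member called higher in stationary phase in both media, with 1.03 ± 0.18, adjusted p = 0.0039, in freshwater and 0.85 ± 0.18, adjusted p = 0.0428, in marine medium. Neither phase call was stable: in freshwater the call was lost without any 1 marine exponential library, replicates 2 or 3 of the freshwater exponential group or replicates 2 or 3 of the freshwater stationary group (log2 changes of 0.69 to 1.15 over all 12 omissions, highest adjusted p 0.156), and in marine medium the call was lost without any 1 freshwater exponential, freshwater stationary or marine exponential library or replicates 1 or 2 of the marine stationary group (log2 changes of 0.81 to 1.00 over all 12 omissions, highest adjusted p 0.338).

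Histone H2A.1 (TRINITY_DN1587_c0_g1, 1290 bases), a canonical H2A in Arabidopsis, stood at 146, 107 and 120.1 CPM in the exponential and 58.8, 63.02 and 65.3 in the stationary freshwater libraries. Marine values were 254, 218 and 230.0 CPM in exponential and 234, 213 and 216 in stationary phase. Every marine library lay above every freshwater library, and the freshwater stationary group was the lowest. Salt raised it by 0.91 ± 0.12, adjusted p = 0.000454, in exponential phase and by 1.83 ± 0.13, adjusted p = 7.67e-06, in stationary phase. The difference between these effects was 0.91 ± 0.17, adjusted p = 0.0101, and in freshwater the gene fell between phases (-0.99 ± 0.12, adjusted p = 0.000522). In exponential phase the call was lost without replicate 1 of the marine exponential group (log2 changes of 0.56 to 0.92 over all 12 omissions, highest adjusted p 0.0535); summing all genes of its assembly component gave -0.04 for that effect.

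Probable histone H2A variant 2 (TRINITY_DN1563_c0_g1, 3374 bases, best hit in rice) stood at 274, 200.3 and 250.0 CPM in the exponential and 108, 99.6 and 152 in the stationary freshwater libraries. Levels in marine medium came to 102, 95.5 and 110.1 CPM in exponential and 106, 113 and 74.5 in stationary phase. The freshwater exponential libraries lay above all others, and the other 3 groups overlapped. It fell with salt in exponential phase (-1.23 ± 0.20, adjusted p = 0.00169) and from exponential to stationary phase in freshwater (-1.01 ± 0.20, adjusted p = 0.00915). With library totals the salt effect was -0.60, adjusted p = 0.106, and the call was lost without replicate 1 of the freshwater stationary group (log2 changes of -1.50 to -0.93 over all 12 omissions, highest adjusted p 0.0578) for the change between phases. Per kilobase, the ratio of H2A.1 to this variant was 1.35 ± 0.0788 in exponential (SD, n = 3) and 1.40 ± 0.268 in stationary freshwater libraries. It was 5.98 ± 0.523 and 6.11 ± 1.36 in the marine libraries of these phases. This ratio within a library does not depend on the scaling factor, and all marine libraries, at 4.93 or more, lay above all freshwater libraries, at 1.65 or less. For H4 over H3.2 the ratio per kilobase was 0.0329 ± 0.00802, 0.0749 ± 0.00787, 0.0933 ± 0.0101 and 0.161 ± 0.0176 in the same order.

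Histone H2B.3 (TRINITY_DN469_c1_g1, 2068 bases), with a best hit to an H2B of the green alga Volvox carteri at 100% similarity, stood at 543, 408 and 417 CPM in the exponential and 235, 175 and 285 in the stationary freshwater libraries. With salt the values were 262, 242 and 286 CPM in exponential and 314, 309 and 291 in stationary phase. The freshwater exponential libraries were the highest. It fell with salt in exponential phase (-0.79 ± 0.18, adjusted p = 0.00963) and between phases in freshwater (-0.98 ± 0.18, adjusted p = 0.00472). With library totals the salt effect was -0.16, adjusted p = 0.591. In stationary phase the salt effect was 0.40 ± 0.17, adjusted p = 0.118, and the difference between the phases' effects was 1.19 ± 0.25, adjusted p = 0.0158; the call was lost without replicate 2 of the marine stationary group (log2 changes of 1.17 to 1.75 over all 12 omissions, highest adjusted p 0.0548) for that difference.

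Histone H2B.11 (TRINITY_DN282_c0_g1) is a composite gene of 5368 bases that also holds a UPF0183 family protein. It stood at 14.4, 6.28 and 12.5 CPM in the exponential and 19.9, 45.2 and 18.5 in the stationary freshwater libraries. Its marine libraries gave 149, 149.6 and 141 CPM in exponential and 111, 107 and 93.2 in stationary phase. The 6 marine libraries lay above the 6 freshwater libraries, with effects of 3.72 ± 0.39, adjusted p = 8.82e-05, and 1.90 ± 0.36, adjusted p = 0.00432. Which of the joined transcripts carried them cannot be told apart. The rise between phases in freshwater (1.33 ± 0.36, adjusted p = 0.042) is not relied on, since the call was lost without any 1 of the 12 libraries (log2 changes of 0.58 to 1.53 over all 12 omissions, highest adjusted p 0.31).

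The remaining core histones were scarce. A histone H2A (TRINITY_DN4566_c0_g1) ranged from 1.05 to 5.39 CPM over the 12 libraries, with adjusted p-values of 0.166 or more in the 5 comparisons. A further H2A.1 (TRINITY_DN6854_c0_g2, 718 bases) had 18, 0, 55 and 87 counts in the 4 groups in the order given above, so it was at least 18.3-fold higher in marine than in freshwater stationary libraries, counting 3 as the floor over the group (adjusted p = 0.0372); the call was lost without any 1 freshwater stationary, marine exponential or marine stationary library or replicates 2 or 3 of the freshwater exponential group. H2A type 1-C (TRINITY_DN12607_c0_g1) and a second H4 (TRINITY_DN22197_c0_g1) were among the vertebrate-like fragments, found in 5 and 3 libraries and highest in freshwater exponential replicate 3, at 287 and 19.0 CPM. Among linker histones, the H1 gene that was no such fragment (TRINITY_DN11354_c0_g1, 822 bases) ranged from 0 to 2.59 CPM. The other 4, H1.3 (TRINITY_DN11423_c0_g1 and TRINITY_DN32527_c0_g1), H1.5 (TRINITY_DN32527_c1_g1) and the heterochromatin protein 1-binding protein 3 (TRINITY_DN51886_c0_g1), were fragments found in 3 to 6 libraries. Adjusted p-values of the linker histones were 0.128 or more in every comparison.

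**Figure D3:**
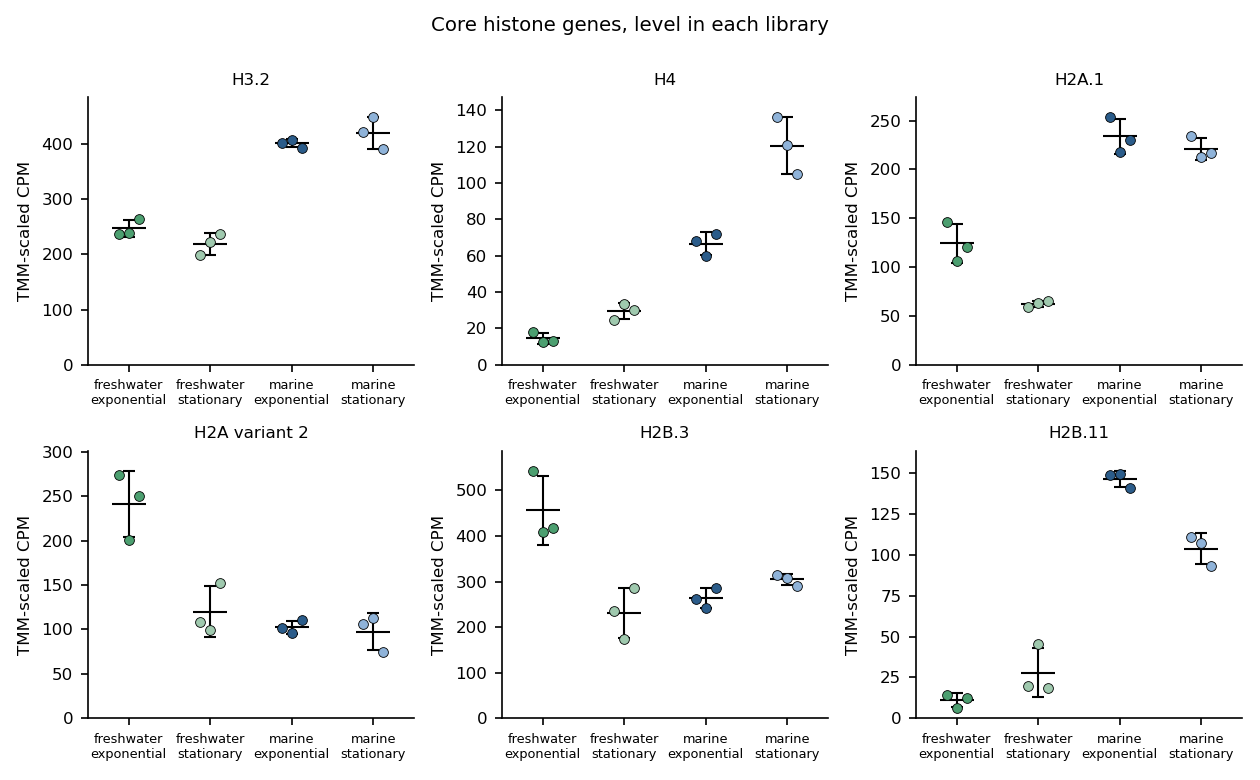
Level in TMM-scaled CPM (vertical axis, linear from 0) of the 6 abundant core histone genes in each of the 12 libraries, by group; points are libraries, and lines the mean and SD of 3. H3.2, H4, H2A.1 and H2B.11 sit higher in all marine than in all freshwater libraries, while the H2A variant 2 and H2B.3 are highest in freshwater exponential libraries.

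Over the 12 libraries, the genes whose log2 CPM followed histone H3.2 most closely, out of 3812 genes with a hit and a mean log2 CPM no lower than 3, were a mitochondrial alanine-glyoxylate aminotransferase 2 homolog 1 (TRINITY_DN1752_c0_g1, Pearson's r = 0.991), a cytosolic glutamine synthetase (TRINITY_DN1744_c0_g1, 0.984), the E3 ubiquitin ligase RHF1A (TRINITY_DN12602_c0_g1, 0.982), a uric acid-xanthine permease (TRINITY_DN3919_c0_g1, 0.981) and ycf45 (TRINITY_DN3138_c0_g1, 0.980). The 12 points share libraries and scaling factors and fall into 4 groups, so these values describe likeness across groups.

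Histone chaperones escort histones to and from DNA. Nucleosome assembly protein 1;2 (TRINITY_DN2721_c0_g1, composite with a SUI1 translation factor) stood at 598, 631 and 572 CPM in the exponential and 644, 540.3 and 713 in the stationary freshwater libraries. The marine libraries held 398, 382 and 387 CPM in exponential and 264, 255 and 426 in stationary phase. It fell with salt, with effects of -0.63 ± 0.19, adjusted p = 0.0387, in exponential and -1.003 ± 0.19, adjusted p = 0.00381, in stationary phase. With library totals the exponential effect was 0.01, and the call was lost without replicate 1 of the freshwater stationary group (log2 changes of -0.94 to -0.62 over all 12 omissions, highest adjusted p 0.0683) in that phase. The MSI1 homolog (TRINITY_DN303_c0_g1, composite with a cytochrome c heme lyase), which in plants is a subunit of chromatin assembly factor 1, was lower in stationary phase (-0.44 ± 0.11, adjusted p = 0.0156), with 0.14 under library totals; the call was lost without any 1 freshwater stationary or marine exponential library, replicate 2 of the freshwater exponential group or replicates 1 or 2 of the marine stationary group (log2 changes of -0.45 to -0.32 over all 12 omissions, highest adjusted p 0.123).

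The MORC protein differed sharply between media. MICRORCHIDIA 2 (TRINITY_DN1371_c2_g1, 2301 bases), an ATPase that in Arabidopsis takes part in gene silencing, stood at 1.18, 2.59 and 1.44 CPM in the exponential and 0, 0.124 and 0 in the stationary freshwater libraries. In marine medium it had 96.2, 105 and 98.2 CPM in exponential and 103, 101 and 166 in stationary phase. It was near absent from freshwater and abundant in every marine library. The counts summed to 38, 1, 3667 and 4947 over the groups in that order. In exponential phase the marine mean was 57.4-fold that of freshwater (adjusted p = 6.66e-06). In stationary phase, where freshwater libraries held 1 count, the ratio was 3119 with an exact 95% counting interval of 560 to 123216 (adjusted p = 1.88e-06). The gene met the freshwater count limit through the exponential libraries alone, so its difference between freshwater phases, 38 counts against 1, is given with no test. In marine medium the phases differed by 0.31 ± 0.33, adjusted p = 1.

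Of 5 DNA methyltransferases, 4 matched rice methyltransferase 1B, a maintenance enzyme that copies cytosine methylation after replication. They split by assembly component. TRINITY_DN26_c0_g8 stood at 6.54, 4.09 and 3.89 CPM in the exponential and 6.31, 10.998 and 8.43 in the stationary freshwater libraries. Marine values were 20.3, 19.1 and 19.3 CPM in exponential and 19.8, 28.3 and 21.9 in stationary phase. Its marine libraries all lay above its freshwater libraries (2.01 ± 0.31, adjusted p = 0.00096, in exponential and 1.44 ± 0.30, adjusted p = 0.00674, in stationary phase). Its neighbour in the assembly, TRINITY_DN26_c0_g4, gave 1.69 ± 0.40 (adjusted p = 0.0143) and 1.36 ± 0.40 (adjusted p = 0.0335). Its calls were lost without any 1 freshwater exponential or marine exponential library or replicate 3 of the freshwater stationary group in exponential phase and without any 1 freshwater exponential or marine exponential library, replicates 1 or 3 of the freshwater stationary group or replicates 1 or 2 of the marine stationary group in stationary phase, and that of TRINITY_DN26_c0_g8 without replicate 2 of the marine stationary group in stationary phase. Reads can be split between the genes of a component, and summing the whole component gave -0.02 and -0.01.

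The other component went the opposite way in stationary phase. TRINITY_DN2149_c0_g3 stood at 43.000, 51.4 and 38.7 CPM in the exponential and 63.7, 35.5 and 90.1 in the stationary freshwater libraries. Levels in marine medium came to 24.02, 32.9 and 31.1 CPM in exponential and 14.1, 15.1 and 26.5 in stationary phase. It fell with salt in stationary phase (-1.77 ± 0.35, adjusted p = 0.0049), as did TRINITY_DN2149_c0_g5 (-1.61 ± 0.28, adjusted p = 0.00227), and both calls held in all 12 omissions. In exponential phase their effects were -0.60 ± 0.34, adjusted p = 0.191, and -0.38 ± 0.27, adjusted p = 0.304. The fifth gene, a CMT3 chromomethylase (TRINITY_DN1139_c1_g2), which in plants methylates cytosines outside CG sites, had mean levels between 8.30 ± 0.556 and 12.4 ± 2.66 CPM in the 4 groups, with no call.

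Histone acetyltransferases, which loosen chromatin by acetylating histone tails, differed gene by gene. HAC1 (TRINITY_DN797_c0_g1), a p300/CBP-type enzyme in Arabidopsis, stood at 111, 177 and 162 CPM in the exponential and 354, 363 and 339.7 in the stationary freshwater libraries. With salt the values were 159, 161 and 159 CPM in exponential and 88.8, 87.5 and 142 in stationary phase. Freshwater stationary libraries stood above all others. The gene rose between phases in freshwater (1.23 ± 0.21, adjusted p = 0.00345) and was lower with salt in stationary phase (-1.73 ± 0.21, adjusted p = 0.000268), with 0.09 ± 0.21, adjusted p = 0.852, in exponential phase and a difference of -1.82 ± 0.30, adjusted p = 0.0041. These 3 calls held in all 12 omissions.

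The MYST family 2 enzyme (TRINITY_DN350_c0_g1, composite with a PLAC8 family protein), whose Arabidopsis counterpart acetylates histone H4, stood at 201, 189 and 168 CPM in the exponential and 54.1, 41.03 and 56.99 in the stationary freshwater libraries. Its marine libraries gave 38.3, 39.997 and 38.3 CPM in exponential and 41.1, 39.6 and 39.5 in stationary phase. Freshwater exponential libraries were the highest and no other group came near them. The gene fell with salt in exponential phase (-2.26 ± 0.13, adjusted p = 1.88e-06) and between phases in freshwater (-1.88 ± 0.13, adjusted p = 1.5e-05), and the salt effects differed by 1.92 ± 0.18, adjusted p = 0.000201. GCN5 (TRINITY_DN1201_c0_g1), the catalytic subunit of the SAGA coactivator in yeast, fell slightly with salt in stationary phase (-0.45 ± 0.09, adjusted p = 0.00538), though library totals gave 0.14 and the call was lost without any 1 marine exponential library, replicates 2 or 3 of the freshwater exponential group, replicates 2 or 3 of the freshwater stationary group or replicate 1 of the marine stationary group (log2 changes of -0.48 to -0.32 over all 12 omissions, highest adjusted p 0.094). MYST-like acetyltransferase 1 (TRINITY_DN761_c1_g4) was higher with salt in both phases (0.60 ± 0.16, adjusted p = 0.0206, and 0.48 ± 0.15, adjusted p = 0.0444). In exponential phase the call was lost without any 1 freshwater exponential or marine exponential library, replicates 2 or 3 of the freshwater stationary group or replicates 1 or 2 of the marine stationary group (log2 changes of 0.21 to 0.61 over all 12 omissions, highest adjusted p 0.416), in stationary phase the call was lost without any 1 freshwater stationary, marine exponential or marine stationary library or replicates 1 or 2 of the freshwater exponential group (log2 changes of 0.48 to 0.59 over all 12 omissions, highest adjusted p 0.152), and summing its component gave -0.09 in stationary phase.

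Histone deacetylases remove those acetyl groups. The type-2 deacetylase 1 (TRINITY_DN844_c0_g1, composite with a ribosome hibernation factor) stood at 1868, 1986 and 1848 CPM in the exponential and 602, 364 and 711 in the stationary freshwater libraries. The marine libraries held 689, 647 and 708 CPM in exponential and 182, 163 and 504 in stationary phase. Freshwater exponential libraries stood above all others, and marine stationary replicate 3 lay far from its 2 partners. It fell with salt in exponential phase (-1.48 ± 0.40, adjusted p = 0.0242) and between phases in freshwater (-1.77 ± 0.40, adjusted p = 0.0167). Under library totals the salt effect was -0.84, adjusted p = 0.0906; the call was lost without replicate 2 of the marine exponential group (log2 changes of -1.78 to -1.48 over all 12 omissions, highest adjusted p 0.0518). Between phases the call was lost without replicate 1 of the freshwater stationary group (log2 changes of -2.27 to -1.75 over all 12 omissions, highest adjusted p 0.0655).

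Histone deacetylase 1 (TRINITY_DN4599_c0_g2) was lower in marine medium in both phases, with effects of -0.49 ± 0.09, adjusted p = 0.00375, and -0.45 ± 0.09, adjusted p = 0.00641. Under library totals both effects were 0.14, so the direction rests on the scaling, and in stationary phase the call was lost without any 1 marine exponential library, replicate 2 of the freshwater exponential group, replicates 2 or 3 of the freshwater stationary group or replicate 1 of the marine stationary group (log2 changes of -0.47 to -0.32 over all 12 omissions, highest adjusted p 0.094). Histone deacetylase 19 (TRINITY_DN1704_c0_g1), whose Arabidopsis counterpart is a corepressor subunit, fell between phases in freshwater (-0.69 ± 0.14, adjusted p = 0.0115) and was higher with salt in stationary phase (0.59 ± 0.14, adjusted p = 0.0157); for the first the call was lost without replicate 1 of the freshwater stationary group (log2 changes of -1.04 to -0.57 over all 12 omissions, highest adjusted p 0.0744) and for the second the call was lost without replicates 1 or 3 of the freshwater stationary group or replicates 1 or 2 of the marine stationary group (log2 changes of 0.48 to 0.79 over all 12 omissions, highest adjusted p 0.112). Histone deacetylase 14 (TRINITY_DN5068_c0_g1), a chloroplast enzyme in Arabidopsis, stood at 23.8, 27.4 and 20.01 CPM in the exponential and 4.73, 3.83 and 4.95 in the stationary freshwater libraries. In marine medium it had 8.80, 7.77 and 8.61 CPM in exponential and 9.53, 9.99 and 1.96 in stationary phase. Freshwater exponential libraries were the highest, and the fall between phases in freshwater was -2.39 ± 0.52, adjusted p = 0.013, where the call was lost without replicate 2 of the freshwater exponential group or replicates 1 or 2 of the freshwater stationary group (log2 changes of -2.77 to -2.39 over all 12 omissions, highest adjusted p 0.0678).

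**Figure D4:**
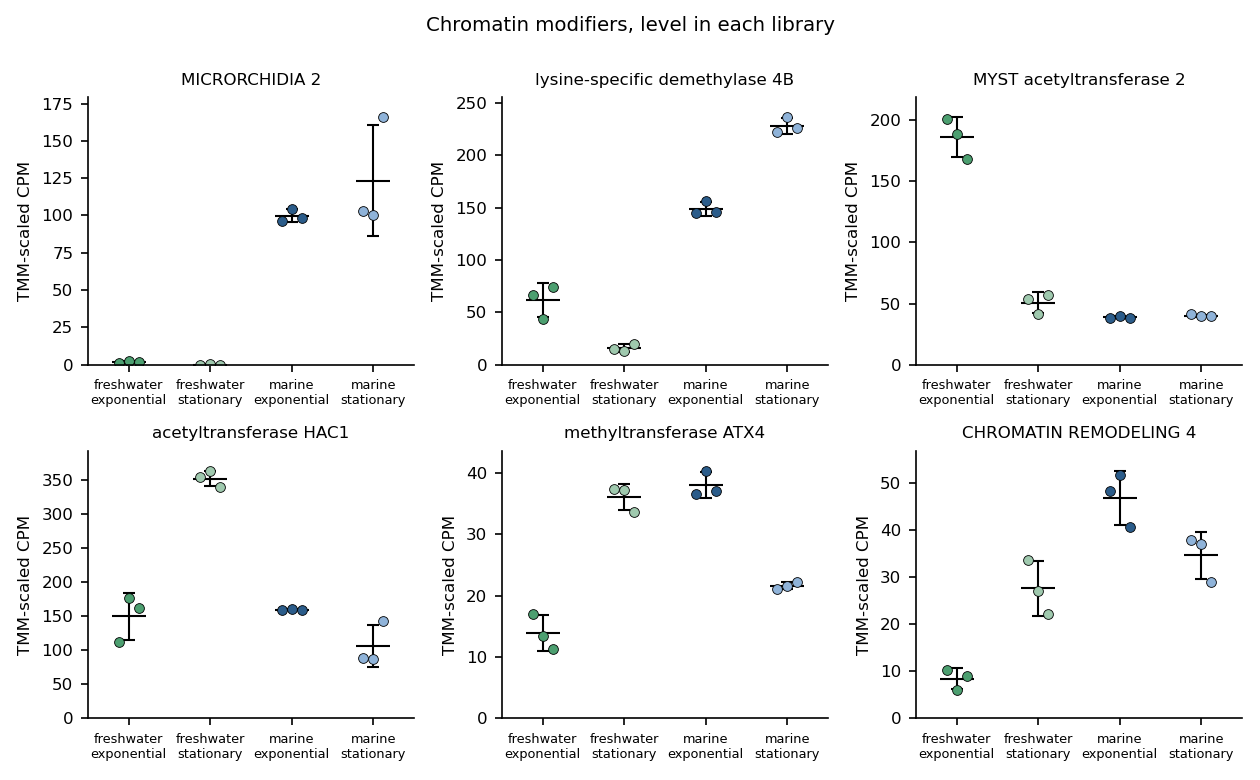
Level in TMM-scaled CPM (vertical axis, linear from 0) of 6 modifier genes in each of the 12 libraries, by group; points are libraries, and lines the mean and SD of 3. MICRORCHIDIA 2 is below 3 CPM in every freshwater library and above 96 CPM in every marine library.

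Histone demethylases of the jumonji type remove methyl groups with iron and oxygen as cofactors. Of 13 demethylases tested, 7 were higher and 1 lower with salt in exponential phase, and 6 were higher and 3 lower in stationary phase. Among all tested genes with 15 or more counts in both media, these shares were 11.8% and 9.34%, and 8.94% and 11.5%. The demethylase 4B (TRINITY_DN2621_c0_g1), composite with an aminotransferase, stood at 66.7, 43.8 and 74.4 CPM in the exponential and 14.6, 13.1 and 19.7 in the stationary freshwater libraries. Marine values were 144, 156 and 145 CPM in exponential and 222, 237 and 226 in stationary phase. Marine libraries lay above freshwater libraries in both phases and freshwater stationary libraries were the lowest. Salt raised it by 1.27 ± 0.20, adjusted p = 0.00116, and by 3.85 ± 0.22, adjusted p = 2.34e-06, a difference of 2.58 ± 0.28, adjusted p = 0.000429, and in freshwater it fell between phases (-1.96 ± 0.20, adjusted p = 0.000167). All 4 calls held in the 12 omissions.

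The lid and JMJ703 genes (TRINITY_DN2513_c0_g3 and TRINITY_DN2513_c0_g4), of the family that demethylates histone H3 in fly and rice, belong to the same assembly component. JMJ703 stood at 12.9, 11.6 and 15.8 CPM in the exponential and 15.5, 14.6 and 10.96 in the stationary freshwater libraries. Levels in marine medium came to 37.8, 41.8 and 34.2 CPM in exponential and 44.8, 51.1 and 25.8 in stationary phase. Every marine library lay above every freshwater library. The effects were 1.49 ± 0.26, adjusted p = 0.00244, and 1.57 ± 0.26, adjusted p = 0.00194, for JMJ703 and 1.18 ± 0.25, adjusted p = 0.00798, and 1.61 ± 0.25, adjusted p = 0.00136, for lid. In exponential phase the JMJ703 call was lost without replicates 1 or 2 of the freshwater exponential group or replicates 1 or 2 of the marine exponential group (1.14 to 1.50, highest adjusted p 0.0639) and the lid call without any 1 freshwater exponential or marine exponential library or replicates 2 or 3 of the freshwater stationary group (0.78 to 1.18, highest adjusted p 0.171). In stationary phase both held.

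JMJ25 (TRINITY_DN4985_c0_g1), which in Arabidopsis limits DNA methylation of active genes, and the JmjC demethylation protein 1 (TRINITY_DN1425_c0_g1), named for a yeast protein, were also called higher in both phases. JMJ25 gave 1.42 ± 0.27 and 0.82 ± 0.26 (adjusted p = 0.00379 and 0.0435), and its calls were lost without any 1 marine exponential library or replicates 2 or 3 of the freshwater exponential group in exponential phase and without any 1 freshwater exponential, freshwater stationary or marine exponential library or replicates 1 or 2 of the marine stationary group in stationary phase. The JmjC protein gave 1.09 ± 0.20 and 0.70 ± 0.20 (adjusted p = 0.00297 and 0.0274), and its calls were lost without any 1 marine exponential library or replicates 1 or 2 of the freshwater exponential group and without any 1 marine exponential library, replicate 1 of the freshwater exponential group, replicates 1 or 3 of the freshwater stationary group or replicates 1 or 2 of the marine stationary group in the same order. Demethylase 4D (TRINITY_DN2955_c0_g1) was higher with salt in stationary phase (0.66 ± 0.12, adjusted p = 0.00391) and fell between phases in freshwater (-0.82 ± 0.12, adjusted p = 0.0017).

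JMJ706 (TRINITY_DN1627_c0_g1, composite with a C2 domain protein), a demethylase of histone H3 in rice, stood at 87.7, 170.0 and 165 CPM in the exponential and 250.0, 226 and 233 in the stationary freshwater libraries. With salt the values were 43.6, 44.04 and 39.6 CPM in exponential and 28.9, 26.3 and 44.3 in stationary phase. All marine libraries lay below all freshwater libraries. The effects were -1.73 ± 0.26, adjusted p = 0.000878, and -2.83 ± 0.27, adjusted p = 5.4e-05, and both held in all 12 omissions. The LSD1 homolog 3 (TRINITY_DN3103_c0_g1), a flavin-dependent demethylase type, fell with salt in stationary phase (-1.33 ± 0.14, adjusted p = 8.29e-05), against -0.31 ± 0.13, adjusted p = 0.124, in exponential phase. The difference was -1.02 ± 0.19, adjusted p = 0.00873, and the call was lost without any 1 freshwater exponential or marine exponential library or replicates 2 or 3 of the freshwater stationary group (log2 changes of -1.18 to -0.63 over all 12 omissions, highest adjusted p 0.167).

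The rbr-2 homolog (TRINITY_DN1289_c0_g1, composite with a Nudix hydrolase), named for a nematode demethylase, was 1 of the 2 members whose call changed direction. It stood at 50.2, 44.7 and 50.97 CPM in the exponential and 90.9, 97.99 and 78.8 in the stationary freshwater libraries. Its marine libraries gave 81.2, 87.8 and 83.4 CPM in exponential and 66.1, 71.1 and 62.1 in stationary phase. The groups were lowest in freshwater exponential and highest in freshwater stationary phase, apart from an overlap with marine exponential libraries. The salt effects were 0.79 ± 0.11, adjusted p = 0.000631, and -0.43 ± 0.11, adjusted p = 0.0212. The second was lost without any 1 of the 12 libraries and was 0.16 under library totals, while the difference of -1.22 ± 0.16, adjusted p = 0.0012, was lost without any 1 marine exponential library. JMJ30 (TRINITY_DN424_c2_g1), a clock-linked demethylase in Arabidopsis, rose with salt in exponential phase (0.88 ± 0.22, adjusted p = 0.0195) and between phases in freshwater (0.94 ± 0.22, adjusted p = 0.0216); in the former case the call was lost without any 1 freshwater exponential or marine exponential library, replicates 2 or 3 of the freshwater stationary group or replicate 1 of the marine stationary group (log2 changes of 0.48 to 0.88 over all 12 omissions, highest adjusted p 0.243) and in the latter the call was lost without any 1 freshwater exponential, freshwater stationary or marine exponential library or replicate 1 of the marine stationary group (log2 changes of 0.56 to 0.95 over all 12 omissions, highest adjusted p 0.228).

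Of 11 histone methyltransferases, 4 were higher and 1 lower with salt in exponential phase and 3 were lower in stationary phase, beside 11.8% and 9.34%, and 11.5%, of tested genes in both media. ATX4 (TRINITY_DN594_c1_g2), of the trithorax group that in plants methylates histone H3 at active genes, stood at 16.99, 13.5 and 11.2 CPM in the exponential and 37.3, 37.2 and 33.7 in the stationary freshwater libraries. The marine libraries held 36.5, 40.4 and 37.1 CPM in exponential and 21.1, 21.6 and 22.3 in stationary phase. Freshwater stationary and marine exponential libraries were high and overlapped, and freshwater exponential libraries were the lowest. It rose with salt in exponential phase (1.45 ± 0.17, adjusted p = 0.000162) and was lower with salt in stationary phase (-0.74 ± 0.16, adjusted p = 0.0103), a difference of -2.18 ± 0.23, adjusted p = 0.000389. It rose between phases in freshwater (1.37 ± 0.17, adjusted p = 0.000445) and fell in marine medium (-0.81 ± 0.16, adjusted p = 0.0404). The stationary salt call was lost without any 1 freshwater stationary or marine exponential library, replicate 2 of the freshwater exponential group or replicates 1 or 2 of the marine stationary group (-0.76 to -0.65, highest adjusted p 0.0905) and the marine phase call without any 1 of the 12 libraries, while the other 3 held.

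A second ATX4 match (TRINITY_DN3992_c0_g1) rose with salt in exponential phase (1.46 ± 0.32, adjusted p = 0.00891), where the call was lost without any 1 marine exponential library or replicates 1 or 3 of the freshwater exponential group (log2 changes of 1.03 to 1.50 over all 12 omissions, highest adjusted p 0.104). ASHH2 (TRINITY_DN3241_c0_g1), which in Arabidopsis methylates histone H3 in transcribed genes, had effects of 0.57 ± 0.17, adjusted p = 0.0359, and -0.49 ± 0.17, adjusted p = 0.0541; the call was lost without any 1 freshwater exponential, freshwater stationary or marine exponential library or replicates 1 or 2 of the marine stationary group (log2 changes of 0.15 to 0.57 over all 12 omissions, highest adjusted p 0.666). EZ3 (TRINITY_DN788_c1_g1), a Polycomb methyltransferase of maize, gave 1.27 ± 0.32, adjusted p = 0.0199, in exponential phase, and the call was lost without any 1 freshwater exponential, freshwater stationary or marine exponential library or replicates 1 or 2 of the marine stationary group (log2 changes of 0.79 to 1.27 over all 12 omissions, highest adjusted p 0.224). SETD2 (TRINITY_DN5699_c0_g2) fell with salt in stationary phase (-0.72 ± 0.18, adjusted p = 0.0182), and the call was lost without any 1 freshwater exponential, freshwater stationary or marine exponential library or replicates 1 or 2 of the marine stationary group (log2 changes of -0.83 to -0.54 over all 12 omissions, highest adjusted p 0.126).

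The histone-arginine methyltransferase 1.3 (TRINITY_DN474_c0_g1, composite with a protein kinase) stood at 333, 579 and 495 CPM in the exponential and 803, 755 and 864 in the stationary freshwater libraries. In marine medium it had 221, 224 and 219 CPM in exponential and 82.6, 79.6 and 139 in stationary phase. Marine libraries lay below freshwater libraries in both phases, and marine stationary libraries were the lowest. The effects were -1.08 ± 0.24, adjusted p = 0.00914, and -3.01 ± 0.25, adjusted p = 2.42e-05, with a difference of -1.92 ± 0.34, adjusted p = 0.00612. The difference was lost without replicates 1 or 2 of the marine exponential group, and with library totals the exponential effect was -0.44, adjusted p = 0.109. Its fall between phases in marine medium (-1.14 ± 0.24, adjusted p = 0.0454) was lost without any 1 freshwater stationary or marine exponential library, replicates 2 or 3 of the freshwater exponential group or replicates 1 or 2 of the marine stationary group.

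Of 20 tested chromatin remodelers, 8 were higher and 2 lower with salt in exponential phase, and 1 was higher and 1 lower in stationary phase. The shares among tested genes in both media were 11.8% and 9.34%, and 8.94% and 11.5%, and the phases were not compared by a test for the class. The CHD-type CHROMATIN REMODELING 4 (TRINITY_DN7253_c0_g1) stood at 10.3, 6.00 and 8.93 CPM in the exponential and 33.7, 26.9 and 22.1 in the stationary freshwater libraries. Marine values were 48.3, 51.7 and 40.5 CPM in exponential and 37.8, 37.1 and 28.9 in stationary phase. Freshwater exponential libraries were the lowest, without overlap with any other group. The salt effect was 2.47 ± 0.25, adjusted p = 5.85e-05, in exponential and 0.33 ± 0.23, adjusted p = 0.311, in stationary phase, and it rose between phases in freshwater (1.71 ± 0.24, adjusted p = 0.00108). The difference between the salt effects was -2.15 ± 0.33, adjusted p = 0.00328, and the call was lost without replicates 1 or 2 of the marine exponential group (log2 changes of -2.20 to -1.59 over all 12 omissions, highest adjusted p 0.0649). A second gene with the same best hit (TRINITY_DN6401_c0_g1, 898 bases) gave 2.47 ± 0.31 and 0.33 ± 0.29 (adjusted p = 0.000272 and 0.444). Whether both are pieces of 1 transcript is not known from the assembly.

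CHROMATIN REMODELING 19 (TRINITY_DN1242_c0_g2, composite with an RNA methyltransferase) was the remodeler called higher in both phases (1.39 ± 0.14, adjusted p = 6.37e-05, and 0.94 ± 0.14, adjusted p = 0.000878), in all 12 omissions, but its summed component gave -1.92 and -2.36. CHROMATIN REMODELING 24 (TRINITY_DN112_c0_g1), a composite of 19162 bases that includes a malate synthase, an enzyme of the glyoxylate cycle, stood at 2096, 2097 and 2213 CPM in the exponential and 1305, 1177 and 1106 in the stationary freshwater libraries. Levels in marine medium came to 377, 383 and 382 CPM in exponential and 341, 339 and 417 in stationary phase. Its levels were 2096 or more in every freshwater exponential, 1106 or more in every freshwater stationary and 417 or less in every marine library. The salt effects by edgeR's test were -2.49 ± 0.12, adjusted p = 4.79e-07, in exponential and -1.71 ± 0.11, adjusted p = 5.64e-06, in stationary phase. Which of the joined transcripts carried these effects cannot be told apart. SMARCC1 (TRINITY_DN5294_c0_g1), a core subunit of SWI/SNF complexes in vertebrates, fell with salt in exponential phase (-0.81 ± 0.14, adjusted p = 0.00245) and between phases in freshwater (-1.12 ± 0.14, adjusted p = 0.000621); library totals gave -0.18, adjusted p = 0.407, for the salt effect.

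Smaller salt effects in exponential phase came from remodelers that move nucleosomes in many eukaryotes. CHROMATIN REMODELING 5 (TRINITY_DN436_c1_g3), a CHD1-type enzyme, gave 0.70 ± 0.10, adjusted p = 0.000719, and the call was lost without any 1 marine exponential library or replicates 1 or 2 of the freshwater exponential group (log2 changes of 0.34 to 0.70 over all 12 omissions, highest adjusted p 0.132). The ISWI ATPase CHR11 (TRINITY_DN392_c0_g2, composite with a DUF525 protein) gave 0.52 ± 0.11, adjusted p = 0.00626, and PICKLE, a CHD3-type repressor of embryonic genes in Arabidopsis, gave 0.83 ± 0.16, adjusted p = 0.00433, for TRINITY_DN11_c1_g1 and 0.64 ± 0.18, adjusted p = 0.032, for TRINITY_DN906_c5_g1. A SMARCA3-like gene (TRINITY_DN65_c2_g1) gave 0.83 ± 0.17, adjusted p = 0.00703, and rose between phases in freshwater (1.004 ± 0.17, adjusted p = 0.0037). The exponential calls of CHR11, TRINITY_DN11_c1_g1 and the SMARCA3-like gene were lost without any 1 freshwater exponential or marine exponential library or replicates 2 or 3 of the freshwater stationary group, and that of TRINITY_DN906_c5_g1 without any 1 freshwater exponential, freshwater stationary or marine exponential library or replicates 1 or 2 of the marine stationary group. In marine medium CHR11 and both PICKLE genes fell from exponential to stationary phase, with changes of -0.50, -0.90 and -0.87, with adjusted p-values of 0.0492, 0.0223 and 0.0482. These 3 calls held in 1, 2 and 0 of the 12 omissions. A SYD remodeler gene (TRINITY_DN11_c2_g2) had 0, 44, 24 and 35 counts in the 4 groups and no call.

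Bromodomain proteins read acetylated histones. Bromodomain protein 9 (TRINITY_DN4083_c0_g1, composite with a Stig1 domain), a SWI/SNF subunit in vertebrates, fell with salt in exponential phase (-1.13 ± 0.20, adjusted p = 0.00226), with -0.49, adjusted p = 0.143, under library totals. A bromodomain and WD repeat protein (TRINITY_DN2692_c0_g3) was higher with salt in both phases (1.09 ± 0.23, adjusted p = 0.00781, and 0.70 ± 0.23, adjusted p = 0.0466). The calls of the latter were lost without any 1 freshwater exponential or marine exponential library or replicates 2 or 3 of the freshwater stationary group in exponential phase and without any 1 freshwater exponential, freshwater stationary or marine exponential library or replicates 1 or 2 of the marine stationary group in stationary phase. Non-histone chromosomal protein 6 (TRINITY_DN4388_c0_g2), a DNA-bending HMG-box protein in fungi, stood at 266, 218 and 194 CPM in the exponential and 176, 129.8 and 229 in the stationary freshwater libraries. With salt the values were 147, 138 and 123 CPM in exponential and 99.3, 103 and 121 in stationary phase. It fell with salt in both phases (-0.74 ± 0.20, adjusted p = 0.0255, and -0.73 ± 0.20, adjusted p = 0.0256). The exponential effect was -0.10 with library totals, and the calls were lost without replicate 1 of the freshwater stationary group, replicate 3 of the marine exponential group or replicate 2 of the marine stationary group and without any 1 marine exponential library, replicates 2 or 3 of the freshwater exponential group, replicates 1 or 3 of the freshwater stationary group or replicates 1 or 2 of the marine stationary group, respectively.

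Between growth phases in freshwater, 12 of 90 members were higher and 12 lower in stationary phase, against 6.46% and 4.42% of all tested genes and 8.67% and 6.34% of those with counts in both media. The 12 lower members include MICRORCHIDIA 2, which met the freshwater count limit through exponential libraries alone, so that call is not relied on. In marine medium 1 was higher and 5 lower, against 0.311% and 1.32% of all tested genes and 0.387% and 1.94% of those in both media. The median log2 fold change of members was -0.02 in freshwater and -0.22 in marine medium, with 0.27 and 0.01 over all tested genes. These comparisons share no library. Apart from H4, higher in both media, and ATX4, higher in freshwater and lower in marine medium, 10 members were higher and 12 lower in freshwater alone and 4 were lower in marine medium alone. These joint counts have no share over all tested genes beside them, and nothing is read from them. In freshwater, 3 of 9 deacetylases were called, all lower, and 3 of 11 methyltransferases, all higher, while 6 and 8 were not called. Each of these deacetylase calls was lost in at least 1 omission. No marine phase call held in all 12 omissions, whereas 12 of 24 freshwater calls did. Omitting 1 library gave 4 to 14 higher and 8 to 15 lower members in freshwater and at most 1 higher and 0 to 7 lower in marine medium, with 4 higher in freshwater without freshwater stationary replicate 2 or any 1 marine exponential library. Without marine stationary replicate 3 the counts were 14 and 15 in freshwater and 1 and 7 in marine medium.

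**Figure D5:**
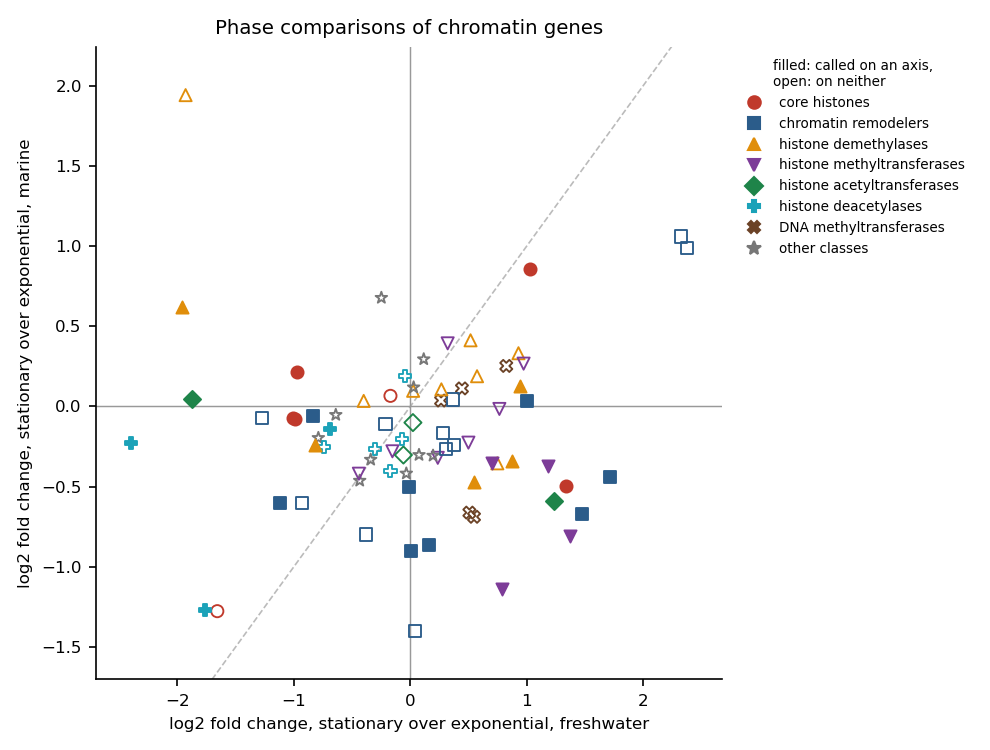
Log2 fold change of stationary over exponential phase in freshwater (horizontal axis) against marine medium (vertical axis) for the same 77 members; filled points were called in at least 1 medium and the dashed line marks equal change. Changes spread more widely along the freshwater axis; H4 (1.03 and 0.85) was called in both media, and ATX4 (1.37 and -0.81) in opposite directions.

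Genes outside the name rule that act with these members were taken from lists of DNA replication proteins and of other chromatin factors. Of 48 tested replication genes, 7 were higher and 4 lower with salt in exponential phase and 4 higher and 17 lower in stationary phase, beside 9.3% and 10.8%, and 9.02% and 17.3%, of all tested genes. Among the 42 with 15 or more counts in both media the counts were 7 and 3, and 4 and 15. The genes named next are those of the 42 that were called in both phases, and the other MCM genes. Higher in both phases were the helicase loader CDC6 (TRINITY_DN110_c11_g1, 1.04 and 1.47), a dihydrofolate reductase-thymidylate synthase (TRINITY_DN2102_c0_g1, 1.39 and 0.75) and 1 gene for the helicase subunit MCM4 (TRINITY_DN1332_c0_g2, 2.31 and 2.21). No other MCM gene of the 42 was called higher. MCM3 (TRINITY_DN335_c0_g4, -2.13 and -3.10) and MCM5 (TRINITY_DN34310_c0_g1, -1.08 and -1.53) were lower in both phases, as was the polymerase epsilon subunit B (TRINITY_DN1279_c0_g1, -1.50 and -1.78), and MCM6 (TRINITY_DN70_c1_g4) was lower in stationary phase (-0.80, adjusted p = 0.0763, and -1.70, adjusted p = 0.00229). The second MCM4 gene of that component (TRINITY_DN1332_c0_g1) had effects of -0.54 and -0.75, MCM7 (TRINITY_DN160_c8_g1) -0.19 and -0.66 and MCM2 (TRINITY_DN335_c0_g5) 0.05 and -0.61, with no call. A further MCM3 gene (TRINITY_DN50241_c0_g1) averaged at most 1.54 CPM in any group and had no call. Replication factor C subunit 1 (TRINITY_DN4464_c0_g3), which loads the sliding clamp, was higher in exponential and lower in stationary phase (0.38, adjusted p = 0.0454, and -0.69, adjusted p = 0.00232). The single-strand binding subunit RPA70C (TRINITY_DN754_c0_g1) did the same (1.08, adjusted p = 0.00368, and -1.48, adjusted p = 0.000562). With library totals MCM5 gave -0.44 and -0.95 (adjusted p = 0.323 and 0.0587) and the stationary effect of replication factor C subunit 1 was -0.11 (adjusted p = 0.563); its exponential effect was 0.29 (adjusted p = 0.119) with RLE factors. Between phases, 5 replication genes were higher and 0 lower in freshwater (6.46% and 4.42% of all tested genes), and 0 were higher and 3 lower in marine medium (0.311% and 1.32%), by edgeR's test.

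Among 50 tested chromatin factors outside the name rule, 4 were higher and 12 lower in exponential phase and 4 higher and 13 lower in stationary phase, beside the same shares of 9.3% and 10.8%, and 9.02% and 17.3%. Among the 38 with 15 or more counts in both media, 4 were higher and 6 lower in each phase, beside 11.8% and 9.34%, and 8.94% and 11.5%, of such genes. Of the 38, the TOUSLED kinase (TRINITY_DN425_c0_g1), which in Arabidopsis phosphorylates a histone chaperone, averaged 31.1 ± 8.23 CPM in exponential and 145 ± 44.7 in stationary freshwater libraries (SD, n = 3). Its marine means were 10759 ± 22.9 and 3966 ± 1368 CPM, and its salt effects 8.43 (adjusted p = 4.79e-07) and 4.77 (adjusted p = 7.75e-06). A Dicer homolog (TRINITY_DN2117_c0_g2), an endoribonuclease of small RNA pathways, was also higher in both phases (0.89 and 0.62). Lower in both phases were actin-related protein 4 (TRINITY_DN3813_c0_g1, -4.52 and -3.12), a subunit of remodeling and acetyltransferase complexes, the histone chaperone subunit SSRP1 (TRINITY_DN3281_c0_g2, -0.98 and -0.52), RuvB-like 1 (TRINITY_DN970_c0_g1, -0.99 and -0.84) and DNA topoisomerase 1 beta (TRINITY_DN1414_c0_g1, -0.63 and -0.29). With library totals RuvB-like 1 gave -0.36 and -0.25 (adjusted p = 0.132 and 0.248 by edgeR's test), while SSRP1 gave -0.35 and 0.07 and the topoisomerase 0.0012 and 0.29. The directions of the stationary SSRP1 effect and of both topoisomerase effects thus rest on the scaling. The exponential SSRP1 effect kept its direction but not its call (adjusted p = 0.154). With RLE factors the stationary topoisomerase effect was -0.21 (adjusted p = 0.0959). The genes called in both phases are the ones named here, a choice made after their values were seen.

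In the authors' deposited table, made with another normalisation, 26 members were called higher and 15 lower with salt in exponential phase, 11 higher and 28 lower in stationary phase, and 6 and 23 had a greater or smaller effect in stationary phase. Over all 52770 genes of the authors' deposited table these shares are 6.76% and 8.21%, 4.39% and 12.9%, and 2.1% and 6.22%. Over its 23351 genes with 15 or more counts in both media they are 12.7% and 11.5%, 6.72% and 16.7%, and 4.61% and 13.9%. Of the members called here, 38 of 40, 26 of 33 and 18 of 18 were called in the authors' deposited table too, in the same direction. For histone H3.2 the authors' deposited table gives log2 fold changes of 0.59 and 0.53, for H4 2.11 and 1.64, and for the H2A variant 2 it gives -1.34 and -0.70, both called. For MICRORCHIDIA 2 the authors' deposited table gives 5.74 and 11.13.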

How the data were processed

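The data are RNA-seq of 12 libraries in 4 groups of 3, read as pairs of 100 bases on an Illumina HiSeq after poly(A) selection, with a kit that keeps no strand, per the labels' protocols. The authors deposited expected counts per gene of a Trinity assembly, estimated with RSEM 1.3.2 and Bowtie per the submitters' processing notes; these were not normalised. The authors' table holds, per its headers, a mean signal per group, log2 fold changes and adjusted p-values, which the submitters' notes credit to SVCD normalisation and DESeq2 1.20.0. The deposited annotation table gives a product name, the hit's E-value, its similarity in percent and the length of 1 sequence per gene.

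Expected counts were rounded and tested in edgeR 4.0.16 (R 4.3.3) with filterByExpr by group, TMM factors, 1 mean per group over 12 libraries and the quasi-likelihood F-test, with Benjamini-Hochberg adjustment over 31491 genes. The 5 contrasts were salt within either phase, phase within either medium, and the salt effect in stationary minus that in exponential phase. With 3 libraries against 3 an exact permutation test on both sides cannot give a p below 0.1, so no single-gene permutation test is reported. Tables and figures were made in Python 3.11.15 with pandas 2.3.3 and matplotlib 3.10.9. The procedure was tested on simulated data for the salt comparison in exponential phase: of 100 genes changed 2-fold and 100 changed 4-fold among 31491, 13 and 50 were called, and 0 unchanged genes were.

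Members, lists, roles and tests were chosen with earlier results of these data known. Named genes are every core and linker histone, the member of each class with the highest mean, up to 3 called members per class, comparison and direction by the largest fold change (mean log2 CPM no lower than 1), and the members at the count limit; other called members are named for completeness. Only the core histones are given as a sum, a choice made after the data were seen; a composite gene held up to 12.7% of the sum over all 10, and composite genes up to 99.2% of the sum in the histone chaperones. The alternatives were DESeq2 1.42.0 and its size factors (RLE), no filter, only the compared libraries, a replicate block, 1 library left out, summed shared-stem libraries, summed components, only genes of both media, and a stricter E-value limit of 1e-20. Library totals, and members without fragments or composite genes, were added after seeing the data. Intervals and floors cover counting error only. No nucleotide or protein sequences are shown, since none were used here.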

Additional observations from a re-analysis of the deposited data

Results flagged for a closer look

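The results gathered here are the 18 members whose salt effect differed between the phases in the test of the difference itself (edgeR's quasi-likelihood test, adjusted p under 0.05); the values are log2 effects of salt in stationary minus exponential phase. MICRORCHIDIA 2 is counted among the 18 (5.41), but this fitted value rests on 1 count in freshwater stationary libraries and is no bound. The gene met the freshwater count limit through exponential libraries alone, so its difference is not relied on. A greater effect in stationary phase was found for the demethylase 4B (2.58), the MYST family 2 acetyltransferase (1.92), histone H2B.3 (1.19), histone H2A.1 (0.91) and CHROMATIN REMODELING 24 (0.78). Of these, the demethylase, the MYST enzyme and the remodeler are composite genes. A smaller effect was found for ATX4 (TRINITY_DN594_c1_g2, -2.18), both CHROMATIN REMODELING 4 genes (-2.15 for TRINITY_DN7253_c0_g1 and -2.14 for TRINITY_DN6401_c0_g1), the arginine methyltransferase 1.3 (-1.92), HAC1 (-1.82), rbr-2 (-1.22), ASHH2 (-1.05), both PICKLE genes (-1.03 for TRINITY_DN906_c5_g1 and -0.90 for TRINITY_DN11_c1_g1), the LSD1 homolog 3 (-1.02), the SMARCA3-like gene (-0.97) and CHROMATIN REMODELING 5 (-0.57). Over omissions of 1 library, 7 of the 18 differences kept their call each time and all 18 kept their sign. Those of ASHH2, CHROMATIN REMODELING 5, the SMARCA3-like gene and TRINITY_DN11_c1_g1 kept it in 1 of 12 omissions, and that of TRINITY_DN906_c5_g1 in 0. Both phases' libraries enter each value, and the marine stationary library that stood apart is among them.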

How the results depend on the processing

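The values below are counts of members called higher and lower, in the order salt in exponential phase (28 and 12), salt in stationary phase (18 and 15), phase in freshwater (12 and 12), phase in marine medium (1 and 5) and the difference between salt effects (6 and 12). Counts not given moved by at most 1.5 times, apart from those with shared-stem libraries summed, which are left out. DESeq2 gave 19 lower in freshwater, 2 higher in marine medium and 12 greater differences; RLE factors gave 1 lower in marine medium and 7 smaller differences. Without a low-count filter there were 11 higher with salt in stationary phase, 7 higher in freshwater, 0 and 0 in marine medium and 7 smaller differences, with 52773 genes tested. Only the compared libraries gave 5 higher in freshwater and 2 and 2 in marine medium. Deviations from the group mean had correlations of -0.053 to 0.036 between same-numbered libraries of different groups, and 7 of 12 libraries were closest to their own number. Whether the replicate numbers pair samples was not tested. The fit with the replicate block gave 24 and 12, 12 and 13, 9 and 12, 0 and 1, and 6 and 8.

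Summing shared-stem libraries merges all marine exponential libraries into 1 sample and marine stationary replicates 1 and 2 into 1. The marine exponential group then has no spread of its own, so no counts of calls are given for that fit. Whether the calls would hold if shared codes mean 1 culture could not be decided by it. Summing components gave 13 higher with salt in exponential phase, 6 higher in freshwater, 0 and 0 in marine medium, and 11 and 6 differences. Members with an E-value of at most 1e-20 gave 7 lower with salt in exponential phase and 0 higher in marine medium. Library totals, and leaving out composite genes or vertebrate-like fragments, were alternatives chosen after seeing the data. Library totals gave 43 and 3, 31 and 8, and, in marine medium, 0 and 1. Without the composite genes found among members with a Pfam domain there were 5 and 9 lower with salt in exponential and stationary phase, 3 lower in marine medium and 3 greater differences. No count moved by over 1.5 times among genes found in both media or without the vertebrate-like fragments. Omitting 1 library gave 9 to 29 and 10 to 15, 10 to 19 and 8 to 16, 4 to 14 and 8 to 15, 0 to 1 and 0 to 7, and 5 to 8 and 2 to 14. These fits repeated the filter and the scaling and tested 37962 to 41585 genes.

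Effects that turned direction were, with components summed, CHROMATIN REMODELING 19 (-1.92 and -2.36 in exponential and stationary phase), H2A.1 (-0.035, exponential), both TRINITY_DN26_c0 methyltransferases (-0.0216 and -0.0051) and MYST-like 1 (-0.0886, stationary). With library totals they were the NAP1;2 gene (0.0107, exponential), histone deacetylase 1 (0.1447 and 0.1356), and in stationary phase GCN5 and the MSI1 homolog (0.1406 each) and rbr-2 (0.1633). The sum over all 10 core histones was 1183 CPM in marine exponential libraries with RLE factors, and at an E-value of 1e-20 it was 716, 444, 755 and 743 CPM in the 4 groups. The causes of these shifts were not tested. At this depth and with 3 libraries a group, 13 of 100 simulated 2-fold changes were called in the salt comparison of exponential phase. The simulation changed far fewer genes than the 2928 called higher and 3392 called lower in the data, which makes its adjustment of p-values stricter. The share recovered therefore does not measure how often changes of members were missed. A member without a call may still differ between groups.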
